A study of Mus musculus with 4 samples.

Results

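The cells described here were fibroblasts that carried transcripts of Fgf10, Gsc or Ngfr, taken from single-cell suspensions of mouse collecting lymphatic vessels with adjoining tissue. Fibroblasts were barcodes with at least 1 Pdgfra and 5 Dcn molecules and none of Ptprc, Pecam1 or Upk3b, which mark leukocytes, endothelium and mesothelium. Among them, a cell was a member when its summed Ngfr, Fgf10 and Gsc count was at least 2 and larger than each of 4 other marker sums. Those sums were Pi16 with Dpp4, then Tcf21 with Asb4 and Rspo3, then Tspan11 with Pax1 and Mlana, and last Col8a1 with Adamts16 and Krtdap. This gave 439 members among 7162 gated fibroblasts, out of 24046 barcodes deposited and 23666 that passed the filter on cells. Members made up 6.13% of the fibroblasts (exact Clopper-Pearson 95% interval 5.59 to 6.71). This interval, like every interval below, covers counting error only.

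All mice were C57BL/6J with no other allele or treatment named, 12 to 14 weeks old, 4 male and 4 female. Vessels from the popliteal, inguinal, mesenteric and cervical regions were combined for each mouse, so the site a cell came from is unknown. The male and female cells were captured as separate tagged pools, and the deposited matrix joins both, with barcodes that end in a suffix from 1 to 8. The suffixes are not tied to a mouse or a sex by any label, so the matrix is 1 pooled sample, no test was made, and suffixes are given below as unlabelled samples.

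Fgf10 is a secreted growth factor that mesenchymal cells use to signal to neighbouring epithelium, and in fat it acts on precursors of adipocytes. Gsc encodes goosecoid, a homeobox transcription factor of the embryonic organizer that is later needed in the mesenchyme of the face and ribs. Ngfr encodes a low-affinity receptor for neurotrophins, found on Schwann cells, perivascular fibroblasts and some stromal cells. Hsd11b2 encodes the enzyme that inactivates corticosterone, the main glucocorticoid of mice. Fibroblasts of the adventitia and of loose connective tissue lay down collagen, elastic fibres and proteoglycans and differ in which of these they make.

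The suffixes fell into 2 sets. No barcode sequence was shared within suffixes 1 to 4 or within 5 to 8, whereas 44 were shared across the sets, 1 of them a member's. Members were 8.56% of fibroblasts in suffixes 1 to 4 (293 cells) and 3.90% in suffixes 5 to 8 (146 cells), and the share per suffix ran from 2.99% to 10.4% (median 5.79%). The 4 highest shares were those of suffixes 1 to 4. Mouse, sex and capture cannot be told apart in this difference. Median depth was 12988 UMIs (distinct captured molecules) in members and 11266 in other fibroblasts. Doublet scoring called 3 of 439 members (0.683%) and 119 of 6723 other fibroblasts (1.77%), and the calls were kept in the main values.

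The 3 genes of the rule were not equally present. Levels are UMIs scaled to a fixed total over the pooled cells (counts per 1e6, CPM), and since the rule chose cells by Fgf10, Gsc and Ngfr, their values are a description only. Fgf10 (chromosome 13, 118669791 to 118792115, plus strand, GRCm38) ran from 139 to 205 CPM over the suffixes in members (median 170) and from 7.42 to 25.0 CPM in other fibroblasts. Gsc (chromosome 12, 104471209 to 104473330, minus strand) ran from 100 to 182 CPM (median 129) against 11.0 to 22.1 CPM. Both genes stood well above the other fibroblasts in each suffix, with no overlap. Ngfr (chromosome 11, 95568818 to 95587735, minus strand) ran from 0 to 78.9 CPM (median 16.4) against 0 to 6.97 CPM.

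Ngfr differed between the 2 sets of suffixes. In members of suffixes 1 to 4, Ngfr stood at 57.5 CPM (95% interval 50.2 to 65.5, 225 UMIs), with a UMI in 34.5% of cells. In members of suffixes 5 to 8 it stood at 6.86 CPM (3.65 to 11.7), from 13 UMIs in 4 cells. None was found in the 57 members of suffix 5 or in the 31 of suffix 6. Taking 3 cells as an approximate upper limit where 0 were seen, the share with a UMI could reach 5.26% and 9.68%. An exact 2-sided 95% interval would reach higher. These limits are on cells with a captured UMI, not on cells that express the gene. Other fibroblasts followed the same order, at 4.36 CPM in suffixes 1 to 4 and 0.238 CPM in suffixes 5 to 8. Fgf10 in members was 174 CPM in both sets, and Gsc was 129 and 143 CPM, but the rule asks for these genes and so largely sets their levels in members. In other fibroblasts Fgf10 was 19.7 CPM in suffixes 1 to 4 and 8.63 CPM in 5 to 8, and Gsc 18.9 and 14.4 CPM.

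**Figure D1:**
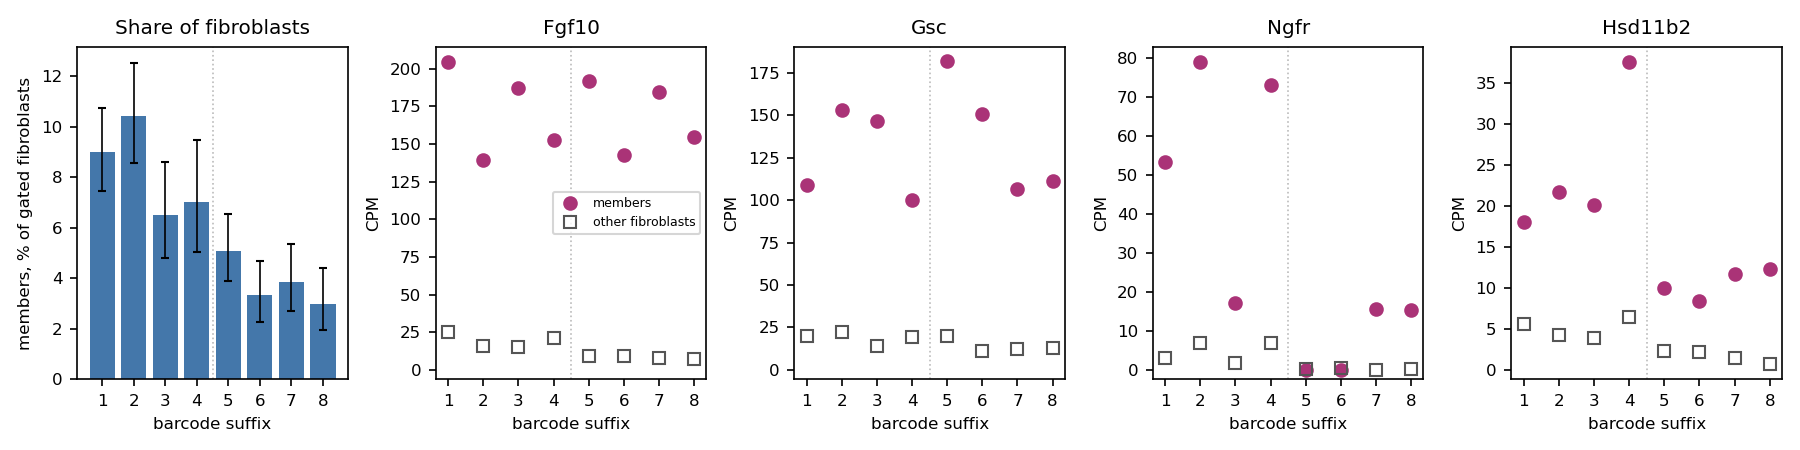
Share of members among gated fibroblasts (percent, bars with exact 95% binomial intervals) and pooled levels of Fgf10, Gsc, Ngfr and Hsd11b2 (CPM) for each of the 8 barcode suffixes, members as filled circles and other fibroblasts as open squares. Fgf10 and Gsc are high in members of every suffix, Ngfr is at 0 in suffixes 5 and 6, and the dotted line parts suffixes 1 to 4 from 5 to 8.

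The name that pairs Ngfr with Fgf10 therefore fits few of these cells. Only 61 of 439 members (13.9%) held UMIs of both, 60 of them in suffixes 1 to 4. Fgf10 with Gsc was the common pair, in 225 members (51.3%). By exact pattern, 182 members had Fgf10 and Gsc without Ngfr, 78 had Gsc alone, 74 had Fgf10 alone and 43 had all 3. Another 23 had Ngfr and Gsc, 21 had Ngfr alone and 18 had Ngfr and Fgf10. The cells are called Fgf10 and Gsc fibroblasts below, or members.

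Hsd11b2 was not counted in the rule that chose the cells. It was listed as their marker with earlier results of these data known, so its values too are a description only. It lies on chromosome 8, from 105518755 to 105523988 on the plus strand, and is protein-coding. Over the 8 suffixes it ran from 8.37 to 37.6 CPM in members (median 15.2) and from 0.753 to 6.40 CPM in other fibroblasts (median 3.13). The lowest member value lay above the highest of the other fibroblasts. Pooled, members held 18.3 CPM from 106 UMIs, 5.60 times (95% interval 4.42 to 7.04) the level of other fibroblasts. The level was not particular to members. In a cluster described below, 300 fibroblasts that the rule left out held 19.9 CPM (15.7 to 25.0). Hsd11b2 was 22.0 CPM in members of suffixes 1 to 4 and 10.6 CPM in those of 5 to 8, against 5.01 and 1.72 CPM in other fibroblasts.

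Hsd11b2 was captured in a minority of members, and at this level and depth a cell without a UMI may still express it. A UMI was found in 15.9% of members (12.6 to 19.7) and in 2.81% of other fibroblasts. After each cell had been thinned to 3000 UMIs, which left out 2 members and 177 other fibroblasts, the shares were 5.03% and 0.901%. The share in cells with a Ptprc UMI, which should lack the gene, was 0.443% at a median depth of 7689 UMIs. The same background class held UMIs of Fgf10 in 1.62%, Gsc in 1.82% and Ngfr in 0.561% of cells. By pattern of the rule genes, Hsd11b2 was highest in members with Ngfr and Gsc but no Fgf10, at 47.4 CPM (25.9 to 79.5), followed by those with all 3 at 30.5 CPM (18.6 to 47.1), with overlapping intervals. Members with Fgf10 and Gsc but no Ngfr held 22.0 CPM (16.5 to 28.6). The other patterns were lower, with wide intervals. Members with Ngfr and Fgf10 held 8.61 CPM (1.04 to 31.1), those with Ngfr alone 8.07 CPM (0.978 to 29.2), those with Fgf10 alone 7.67 CPM (3.09 to 15.8) and those with Gsc alone 6.25 CPM (2.30 to 13.6).

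The threshold at a sum of 2 cuts through a gradient. The 128 members just inside it held 25.0 CPM of Olfm2 and 299 CPM of Hmgcs1, both described below, against 7.12 and 180 CPM in the 1082 fibroblasts with a sum of 1. Many of those 1082 carried other marker sums. The 299 of them whose other sums were all under 2 held 15.6 CPM of Olfm2 (11.6 to 20.5) and 294 CPM of Hmgcs1 (275 to 313), which for Hmgcs1 is about the level just inside. Members with a sum of 6 or more held 63.4 and 544 CPM. A further 542 fibroblasts reached a sum of 2 without exceeding another marker sum, 395 of them held back by Pi16 with Dpp4, and they held 7.24 CPM of Olfm2.

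Across the transcriptome, members were compared with the other 6723 fibroblasts as log2((member CPM + 10)/(other CPM + 10)), a scale that understates the change of low genes. Of 8410 genes with a mean of both groups of at least 10 CPM, the rule genes left out, 79 were at least 2-fold higher in members (0.939 percent of genes tested) and 157 at least 2-fold lower (1.87 percent). The median over all genes was -0.02. A gene low in 1 group could be tested only if it was high enough in the other. Olfm2, Nexmif, Plin4 and Hsd11b2, for example, reached the minimum level only through the members. The list counts below carry the same limit. For 76 genes (0.904 percent) the members' lowest suffix lay above the other fibroblasts' highest, and for 241 (2.87 percent) the members' highest lay below the others' lowest. Within suffixes 1 to 4 alone, 67 genes (0.797 percent) were at least 2-fold higher and 164 (1.95 percent) lower. Within suffixes 5 to 8, 94 (1.12 percent) were higher and 147 (1.75 percent) lower. The genes at least 2-fold higher in both sets numbered 45, which is 67.2% of the first list and 47.9% of the second. Those lower in both numbered 96, or 58.5% and 65.3%. Since cells were chosen by counts of 3 genes from the same libraries, these are descriptions of the chosen cells.

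The gene with the highest ratio was Olfm2, which encodes olfactomedin 2, a secreted glycoprotein. It ran from 8.37 to 63.5 CPM over the suffixes in members (median 27.6) and from 0.512 to 7.52 CPM in other fibroblasts, with no overlap. The pooled level was 11.4 times (9.55 to 13.6) that of other fibroblasts. Adam12, a membrane-anchored metalloprotease of mesenchymal cells, ran from 93.0 to 495 CPM (median 241) against 48.9 to 115 CPM. It was higher in members in 8 of 8 suffixes, by 3.95 times (3.74 to 4.17), though the ranges overlapped.

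Bmper, a secreted regulator that binds bone morphogenetic proteins, ran from 128 to 367 CPM in members (median 211) against 37.0 to 77.1 CPM, a ratio of 4.03 (3.77 to 4.30) with ranges apart. Pparg, the nuclear receptor that drives adipocyte differentiation, ran from 19.5 to 86.3 CPM (median 61.8) against 7.31 to 22.0 CPM. Its ranges overlapped at the edge, and it was higher in 8 of 8 suffixes at 4.31 times (3.81 to 4.86). A Pparg UMI was found in 39.2% of members and 8.89% of other fibroblasts, or 9.84% and 2.78% after thinning. Plin4, a coat protein of lipid droplets, was 23.1 CPM against 2.12 CPM (10.9 times, 8.59 to 13.7) and was tested only because members held it.

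The 15 genes of highest ratio also held Pde11a (4.48 times), a cyclic nucleotide phosphodiesterase, Frmd4b (3.26 times) and Hmgcs1 (3.08 times), which opens the mevalonate pathway. Prss12, a secreted serine protease, was at 4.67 times, Trabd2b, a membrane inhibitor of Wnt proteins, at 3.25 times and Ldb2, a cofactor of LIM-domain transcription factors, at 3.00 times. Noct, a circadian regulator of lipid metabolism, was at 3.18 times and Nrep at 3.05 times. H2-Q6, a class Ib histocompatibility gene whose reads may be split with its near-identical neighbours, was at 4.12 times, and Nexmif at 5.09 times. A single member held 57 of the 233 Nexmif UMIs, or 24.5%. All 15 were at least 2-fold higher within suffixes 1 to 4 and within suffixes 5 to 8, and 12 were higher in 8 of 8 suffixes, where the naming rule asked for 7.

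**Figure D2:**
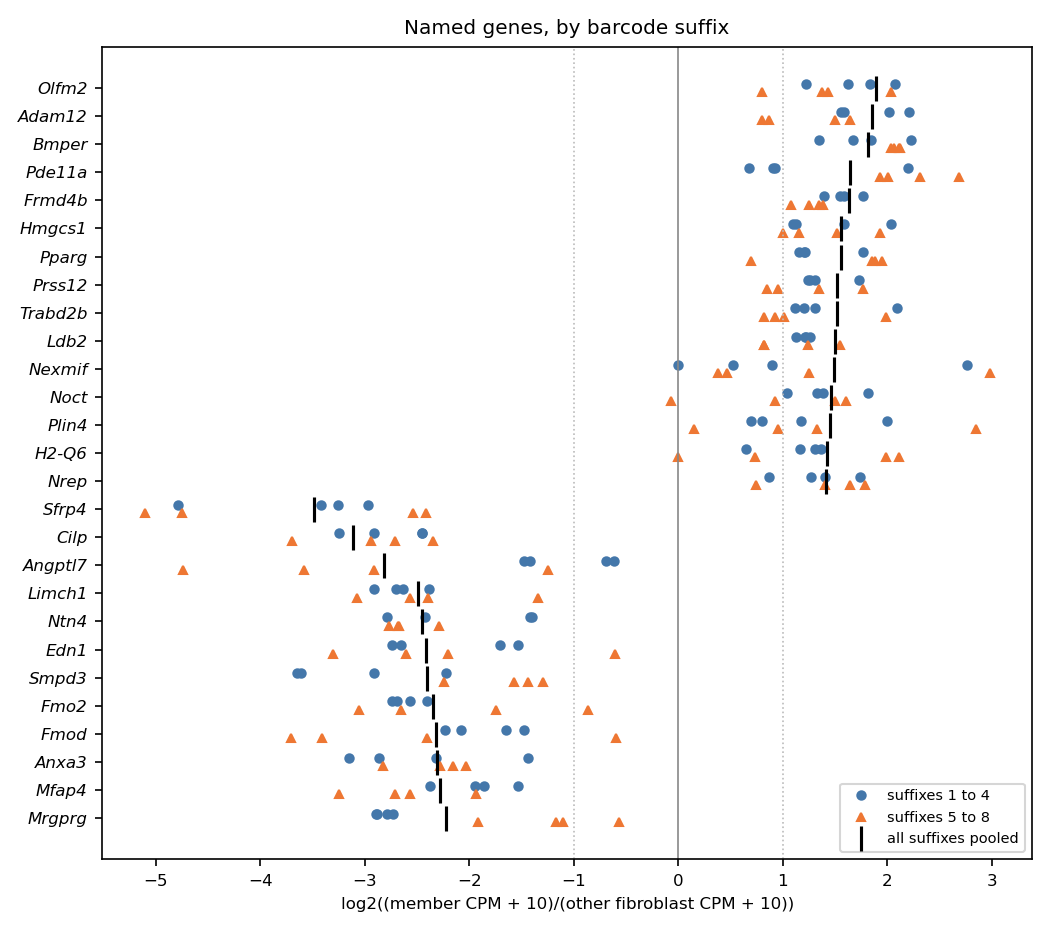
Log2 ratio of member to other fibroblast level (pseudocount 10 CPM) for the 15 highest and 12 lowest named genes, with 1 point per barcode suffix and a bar for all suffixes pooled; dotted lines mark 2-fold. Circles (suffixes 1 to 4) and triangles (5 to 8) lie on the same side of 0 for nearly every gene, with Noct, H2-Q6 and Nexmif reaching 0 in 1 suffix each.

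Against each of the other fibroblast sets defined by the same kind of sum, members had the highest level of all 15 genes. The nearest set was that of Tcf21, Asb4 and Rspo3 for 6 of them. Trabd2b was 155 CPM in members and 145 CPM in that set, and Adam12 was 298 and 211 CPM. Only 13 genes of 8410 (0.155 percent) were at least 2-fold above every other set at once. They were Olfm2, Nexmif, H2-Q6, Plin4, Ldb2, the maternally expressed RNA H19, the chondroitin sulphotransferase gene Chst11, the unnamed gene Gm16263, and 5 genes of sterol metabolism. H19 was higher in members in only 5 of 8 suffixes.

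Those 5 were Hmgcs1, Insig1, Msmo1, Sqle and Cyp51, and their joint presence led to a list of 32 sterol genes that was put together after these values had been seen. Of its 26 genes tested, 7 were at least 2-fold higher in members (0.939% of all genes) and none was lower by that much. The median was 0.66 on the log2 scale, beside -0.02 for all genes. Idi1 was also among the 7. Among the 26 genes, 12 were higher in 8 of 8 suffixes and 20 were above 0 within both sets of suffixes. For 19 of the 26, members held the highest level of the 6 fibroblast sets.

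Hmgcs1 makes the precursor of mevalonate from acetyl units. It ran from 247 to 595 CPM over the suffixes in members (median 404) and from 110 to 202 CPM in other fibroblasts, with no overlap, and the pooled ratio was 3.08 (2.95 to 3.21). Insig1, a sterol-sensing protein of the endoplasmic reticulum that holds back the pathway, ran from 101 to 235 CPM (median 157) against 50.3 to 87.4 CPM, a ratio of 2.87 (2.68 to 3.07). Sqle, which oxidises squalene, ran from 30.7 to 94.9 CPM (median 41.5) against 12.6 to 29.4 CPM, a ratio of 3.35 (2.99 to 3.74). All 3 genes were thus separated between members and other fibroblasts in these suffix ranges.

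Idi1, Cyp51 and Msmo1 showed ratios of similar size. Idi1, which isomerises isopentenyl units, was 2.76 times higher (2.59 to 2.95), Cyp51, a demethylase of lanosterol, 2.75 times (2.54 to 2.97) and Msmo1, a demethylating oxidase of the same branch, 2.50 times (2.33 to 2.69). Both sets of suffixes showed the higher levels. Hmgcs1 stood at 462 CPM in members of suffixes 1 to 4 and 393 CPM in those of 5 to 8, against 135 and 149.5 CPM in other fibroblasts, and Cyp51 at 135 and 126 CPM against 47.6 and 48.3 CPM.

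Genes of this pathway are known to be switched on together by sterol-responsive transcription factors that bind beside CCAAT-box factors. RefSeq promoter entries (GRCm38.p6) matched 5 of the 7 genes. They are shown because these genes were higher together in the members. Each line gives the 150 bases before the annotated start, 5′ to 3′ on the gene's strand, with matches to TCACNCCAC and to CCAAT on either strand in capitals (ATTGG is CCAAT on the other strand).
Hmgcs1, chr13:119690201-119690350, plus strand: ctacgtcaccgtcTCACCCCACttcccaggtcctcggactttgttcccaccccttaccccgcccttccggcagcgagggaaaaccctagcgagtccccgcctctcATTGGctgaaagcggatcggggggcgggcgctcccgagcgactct
Insig1, chr5:28071262-28071411, plus strand: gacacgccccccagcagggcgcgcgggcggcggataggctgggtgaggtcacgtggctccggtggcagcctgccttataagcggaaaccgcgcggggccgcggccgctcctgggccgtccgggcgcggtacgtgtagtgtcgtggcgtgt
Idi1, chr13:8885456-8885605, plus strand: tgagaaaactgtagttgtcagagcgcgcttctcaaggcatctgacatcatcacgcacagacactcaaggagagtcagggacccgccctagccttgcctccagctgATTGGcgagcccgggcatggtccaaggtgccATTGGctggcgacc
Cyp51, chr5:4104698-4104847, minus strand: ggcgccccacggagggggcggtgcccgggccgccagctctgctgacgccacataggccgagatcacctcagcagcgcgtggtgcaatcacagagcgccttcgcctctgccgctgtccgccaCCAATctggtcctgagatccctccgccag
Msmo1, chr8:64733579-64733728, minus strand: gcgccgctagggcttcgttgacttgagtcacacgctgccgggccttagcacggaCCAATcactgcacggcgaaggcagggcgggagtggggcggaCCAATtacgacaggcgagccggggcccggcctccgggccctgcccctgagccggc

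In these windows TCACNCCAC was found in Hmgcs1 alone of the 5, as TCACCCCAC, and in 0.639% of all 32851 promoter entries over the same 150 bases. CCAAT was found in 4 of the 5, with 2 matches each in Idi1 and Msmo1 and none in Insig1, and in 24.5% of all entries. Of the 25 entries for the sterol genes tested, 15 held CCAAT and 1 held TCACNCCAC. A match is a description of these letters and not a binding site.

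Genes of lipid uptake and fat cell precursors were also higher. Of 6 adipogenic marker genes tested, 5 were at least 2-fold higher in members (0.939% of all genes) and 1, F3, was lower (1.87%). Lpl, the lipase that frees fatty acids at the cell surface, ran from 917 to 1824 CPM in members (median 1297) against 491 to 725 CPM, a ratio of 2.16 (2.11 to 2.22). Icam1, an adhesion molecule found on committed preadipocytes and on activated stroma, ran from 892 to 1703 CPM (median 1132) against 439 to 557 CPM, a ratio of 2.42 (2.36 to 2.48). Neither gene's ranges overlapped.

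Fabp4 and Cd36, a carrier and a transporter of fatty acids, varied far more. Fabp4 ran from 14.0 to 1844 CPM in members (median 395) against 38.3 to 237 CPM and was higher in only 5 of 8 suffixes, and 1 member held 20.9% of its 3370 UMIs. Cd36 was 50.4 CPM in members of suffixes 1 to 4 and 15.3 CPM in those of 5 to 8, against 12.4 and 11.9 CPM, and without suffix 3 its log2 ratio was 0.75 in place of 1.14. A Fabp4 UMI was found in 17.5% of cells with a Ptprc UMI and in 70.0% of those with a Pecam1 but no Ptprc UMI, and the part of free RNA in these values was not tested. Adipoq and Plin1, which define mature adipocytes, stood at 3.96 and 2.76 CPM in members and 4.11 and 2.31 CPM in other fibroblasts.

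F3, which encodes tissue factor, was 2.78 times lower in members (2.53 to 3.06), in 8 of 8 suffixes. The fibroblasts of Tcf21, Asb4 and Rspo3 shared much of this profile, with 1449 CPM of Lpl, 797 CPM of Fabp4 and 33.1 CPM of Pparg. They differed in the sterol genes, with 85.7 CPM of Hmgcs1. A wider list of 22 genes of fatty acid synthesis and storage was also drawn up after values were seen. Of 20 tested, 6 were higher (0.939% of all genes) and none lower. These were Elovl6, an elongase at 2.37 times (2.13 to 2.63), and Plin4, Fabp4, Cd36, Lpl and Pparg. Plin4 reached the minimum level only through the members. Without suffix 1 the log2 ratio of Elovl6 was 0.87 in place of 1.02, and without suffix 7 or 8 it was 0.99.

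**Figure D3:**
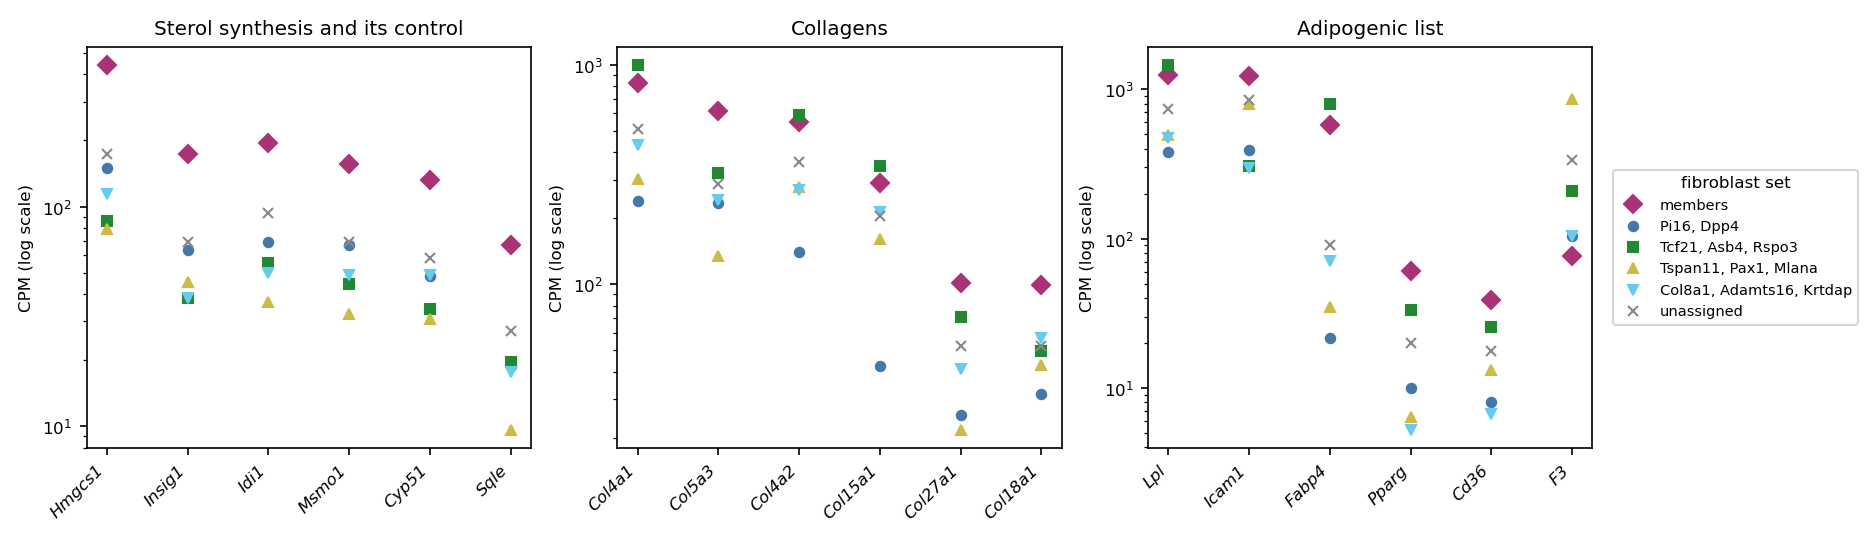
Pooled levels (CPM, log scale) in members and in the 5 other fibroblast sets. Shown are 6 sterol genes, the collagens at least 2-fold higher in members than in other fibroblasts, and the adipogenic genes at least 2-fold higher or lower. The collagens Col6a5 and Col14a1, which were lower, are not shown. Members (diamonds) lie above every other set for the 6 sterol genes, while the Tcf21, Asb4 and Rspo3 set (squares) equals or exceeds them for Col4a1, Col4a2, Col15a1, Lpl and Fabp4.

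Collagen genes differed by kind. Of 7 basement membrane collagens tested, 4 were at least 2-fold higher in members, none was lower, and the median was 1.10 on the log2 scale. Over all genes tested, 0.939% were higher and 1.87% lower, with a median of -0.02. Col4a1, a chain of the network-forming collagen of basement membranes, ran from 514 to 1229 CPM in members (median 749) against 255 to 510 CPM. Col4a2, its partner chain, ran from 427 to 709 CPM (median 523) against 201 to 299 CPM. Neither overlapped with the other fibroblasts, and the ratios were 2.17 (2.11 to 2.24) and 2.23 (2.15 to 2.32). Col15a1 was 2.41 times higher (2.28 to 2.54) and Col18a1 2.52 times (2.31 to 2.76), both collagens of the basement membrane zone. The Tcf21, Asb4 and Rspo3 fibroblasts equalled or exceeded the members for Col4a1, Col4a2 and Col15a1. Of the 22 collagens tested, members held the highest level of the 6 fibroblast sets for 6. Without suffix 7 the log2 ratio of Col18a1 was 1.00, just under the threshold.

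Of 7 fibrillar collagens tested, 2 were at least 2-fold higher (0.939% of all genes) and none lower. Col5a3 ran from 380 to 737 CPM in members (median 606) against 153 to 340 CPM, and Col27a1 from 55.8 to 142 CPM (median 85.2) against 20.6 to 55.1 CPM. Both were separated from the other fibroblasts, with ratios of 2.47 (2.38 to 2.56) and 2.80 (2.56 to 3.06). Col1a1, a chain of type I collagen, was at 3569 and 3502 CPM. Of 8 other collagens tested, none was higher and 2 were lower, Col6a5 and Col14a1, a collagen that binds to the surface of fibrils. Col14a1 ran from 52.6 to 249 CPM in members (median 93.3) against 338 to 697 CPM, 3.76 times lower (3.50 to 4.03) with no overlap. Laminins, nidogens and other non-collagen proteins of basement membranes did not follow Col4a1, with 0 of 9 tested past 2-fold in either direction and a median of -0.13.

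Some genes of elastic fibres and several proteoglycans and glycoproteins were lower. Of 11 elastic fibre genes tested, 3 were at least 2-fold lower (Mfap4, Mfap5 and Fbn1, a fibrillin gene) and none higher. Of 20 proteoglycans and glycoproteins, 9 were lower and none higher, with a median of -0.94. Over all genes tested, 1.87% were lower and 0.939% higher, with a median of -0.02. The 9 were Cilp, Fmod, Prg4, Tnc, Thbs4, Aspn, Fn1, Ogn and Thbs1. Fn1, fibronectin, ran from 950 to 1398 CPM in members (median 1171) against 2153 to 2894 CPM, a level 2.16 times lower (2.11 to 2.21) with no overlap. Fbn1 and Thbs1 lay near the threshold, at -1.02 each on the log2 scale. Without 1 of suffixes 3, 4, 6 and 8 Fbn1 was under 2-fold, as near to 0 as -0.95, and without 1 of suffixes 2, 4, 5, 6 and 8 Thbs1 lay between -0.99 and -0.95. Ogn was -0.93 without suffix 1 in place of -1.09. The 8 tendon and joint markers summed to 14.1 CPM in members and 151 CPM in other fibroblasts, and the 4 tested reached the minimum level only through the other fibroblasts.

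**Figure D4:**
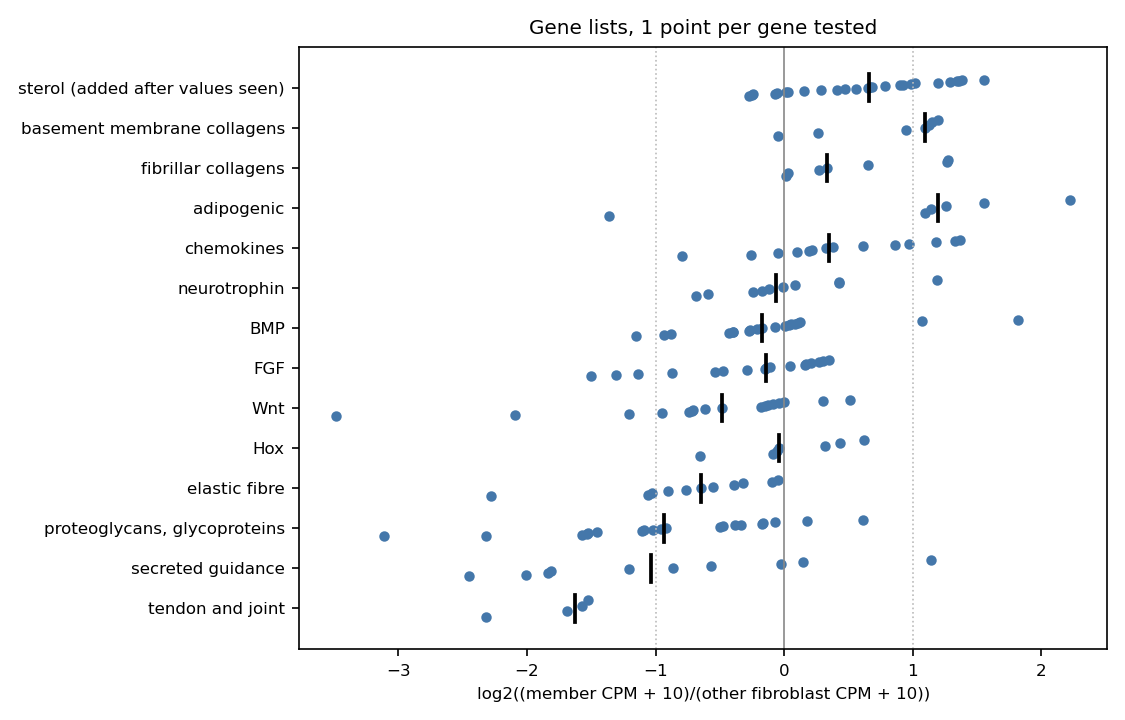
Log2 ratio of member to other fibroblast level (pseudocount 10 CPM) for the genes tested in 14 gene lists, 1 point per gene, with a bar at each list's median and dotted lines at 2-fold. Basement membrane collagens and adipogenic genes have medians of 1.10 and 1.20, elastic fibre genes have one of -0.65, and the tendon and joint genes were tested only because other fibroblasts held them.

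The lowest ratios belonged to genes of the other fibroblast sets. Sfrp4, a secreted Wnt inhibitor, ran from 7.19 to 77.7 CPM in members (median 35.1) against 346 to 686 CPM in other fibroblasts, 14.1 times lower (12.3 to 16.3). Cilp, a cartilage matrix protein that binds growth factors, ran from 1.61 to 18.5 CPM (median 6.00) against 55.6 to 209 CPM, 22.1 times lower (15.7 to 32.1). Anxa3, a membrane-binding annexin, ran from 55.5 to 187 CPM (median 115) against 466 to 729 CPM, 5.28 times lower (4.89 to 5.70). No member range reached the other fibroblasts for these 3.

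The 12 lowest named genes were lower in 8 of 8 suffixes, where the naming rule asked for 7, and 9 had ranges apart. Cilp, Angptl7, Limch1, Ntn4, Fmod, Mfap4 and Mrgprg reached the minimum level only through the other fibroblasts. Limch1 was 10.4 times lower (7.99 to 13.7), Ntn4, a netrin of basement membranes, 12.3 times (8.96 to 17.4), Edn1, the precursor of endothelin, 9.44 times (7.34 to 12.3) and Smpd3 6.57 times (5.71 to 7.60). Fmo2, a drug-metabolising oxygenase, was 6.68 times lower (5.68 to 7.91) and Mfap4 14.2 times (9.51 to 22.1). All 13 Angptl7 UMIs of the members came from 1 cell, and so did 13 of their 16 Fmod UMIs. Without suffix 5 the log2 ratio of Angptl7 was -2.06 in place of -2.81. Mrgprg, an orphan receptor gene, was represented by 2 UMIs in 439 members against 38.1 CPM in other fibroblasts, 111 times lower (30.6 to 914). Of the 12 genes, 6 were highest in the Pi16 and Dpp4 fibroblasts, 5 in the Col8a1, Adamts16 and Krtdap fibroblasts and 1, Fmo2, in the Tspan11, Pax1 and Mlana fibroblasts.

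Neurotrophins are secreted factors that Ngfr binds together with the Ntrk kinases. Of 10 genes of this pathway tested beside Ngfr itself, 1 was at least 2-fold higher (0.939% of all genes), none lower. That gene was the ligand Ntf3, neurotrophin 3, which ran from 44.7 to 122 CPM in members (median 75.4) against 13.0 to 54.9 CPM, a ratio of 2.69 (2.44 to 2.97). It was higher in 8 of 8 suffixes, with overlapping ranges, and unlike Ngfr it was well present in suffixes 5 to 8, at 62.2 CPM against 16.7. Among the kinase receptors, Ntrk2 was 174 against 127 CPM, higher in 8 of 8 suffixes but under 2-fold, and Ntrk3 was 11.2 against 24.1 CPM.

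In the FGF pathway, 3 of 17 genes tested beside Fgf10 were at least 2-fold lower (1.87% of all genes) and none higher. The ligand Fgf2 ran from 23.0 to 50.1 CPM in members (median 36.4) against 89.0 to 119 CPM, 2.50 times lower (2.19 to 2.86) with no overlap. Sulf1 and Sulf2, sulphatases that trim the heparan sulphate on which FGFs act, were 2.58 times (2.40 to 2.77) and 3.50 times (2.99 to 4.12) lower. Fgf7, the ligand closest in receptor use to Fgf10, was 70.4 against 61.5 CPM. The receptor Fgfr1 was 198 against 244 CPM, and none of 7 targets passed 2-fold.

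Among 13 corticosteroid genes tested, 2 were at least 2-fold higher (0.939% of all genes), Hsd11b2 and Sgk1. Hsd11b2 reached the minimum level only through the members (18.3 against 3.26 CPM), so it could be tested only by being high in them. Sgk1, a kinase induced by glucocorticoids and mineralocorticoids among other signals, ran from 135 to 365 CPM in members (median 262) against 92.8 to 146 CPM, a ratio of 2.20 (2.08 to 2.33). Its ranges overlapped slightly, and without suffix 1 its log2 ratio was 0.98 in place of 1.07. Hsd11b1, the enzyme that regenerates corticosterone, was 49.2 against 61.7 CPM, with 27.9 CPM in members of suffixes 1 to 4 and 93.4 CPM in those of 5 to 8. The glucocorticoid and mineralocorticoid receptors Nr3c1 and Nr3c2 were at 189 against 180 CPM and 26.9 against 27.2 CPM.

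Of 19 BMP genes tested, 2 were higher (0.939% of all genes) and 1 lower (1.87%), all of them inhibitors. Beside Bmper, Fst, which encodes the activin-binding follistatin, ran from 315 to 939 CPM in members (median 672) against 209 to 523 CPM, 2.13 times (2.06 to 2.21). Chrdl1, a chordin-like antagonist, was 2.67 times lower (2.28 to 3.15) with ranges apart. Both lay near the threshold, since the log2 ratio of Fst was 0.99 without suffix 6 and that of Chrdl1 was -0.99 without suffix 1. Of 17 Wnt genes tested, 3 were lower (1.87% of all genes) and none higher. Beside Sfrp4 these were Sfrp2, a related inhibitor, 4.61 times lower (4.23 to 5.03), and the ligand Wnt2, 3.59 times lower (2.78 to 4.73). None of 7 hedgehog genes passed 2-fold. In the retinoid list of 11, Cyp26b1, which degrades retinoic acid, was 2.85 times higher (2.58 to 3.16) and Aldh1a3, which makes it, 15.9 times lower (8.61 to 33.1, from 10 UMIs). Aldh1a3 reached the minimum level only through the other fibroblasts. Without suffix 2 the log2 ratio of Cyp26b1 was 0.83 in place of 1.24.

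Hox genes record the body region a mesenchymal cell came from, and Gsc is a regional gene too. None of 7 Hox genes tested passed 2-fold, and the largest ratio was that of Hoxc11, at 28.8 against 15.2 CPM. Among 23 other regional transcription factors tested, none was at least 2-fold higher. Wt1 and Nkx2-3, both of visceral mesoderm, were 3.95 times (3.41 to 4.59) and 5.05 times (3.50 to 7.55) lower, each in 8 of 8 suffixes and each highest in the Tcf21, Asb4 and Rspo3 fibroblasts. Nkx2-3 reached the minimum level only through the other fibroblasts.

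Secreted guidance cues differed in both directions. Of 10 tested, 5 were at least 2-fold lower in members, in 8 of 8 suffixes each, and 1 was higher. Over all genes tested these shares were 1.87% and 0.939%. The lower genes were the semaphorins Sema3b (3.38 times), Sema3c (3.92 times), Sema3d (14.3 times) and Sema3e (7.00 times) and the netrin Ntn4. Sema3d, Sema3e and Ntn4 reached the minimum level only through the other fibroblasts, and the higher gene, Nrg1, only through the members. Sema3c ran from 48.1 to 96.6 CPM in members (median 69.4) against 236 to 395 CPM in other fibroblasts. Nrg1, a neuregulin, was the higher gene at 4.99 times (4.03 to 6.15), but in only 5 of 8 suffixes, with 37 of its 125 UMIs in 1 cell. Without suffix 1 or 3 its log2 ratio was 0.96 or 0.95 in place of 1.14. Among surface guidance molecules, 1 of 10 was lower, the ephrin Efna5, at 3.76 times (3.34 to 4.25).

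Immune signals differed in both directions, with 4 of 34 genes tested higher and 4 lower. Over all genes tested, 0.939% were higher and 1.87% lower. Some of these calls rested on few suffixes, as given below. Ccl19, a chemokine that attracts dendritic and T cells, ran from 104 to 453 CPM in members (median 236) against 51.0 to 137 CPM, a ratio of 2.71 (2.55 to 2.89), higher in 8 of 8 suffixes. Kitl, the stem cell factor, was 2.27 times higher (2.13 to 2.40), likewise in 8 of 8. Cxcl9, induced by interferon, was higher in 5 of 8 suffixes, with none in the lowest and 120 CPM in the highest. Cxcl13, which attracts B cells, was 651 CPM in members of suffixes 5 to 8 and 68.5 CPM in those of 1 to 4, against 108 and 109 CPM in other fibroblasts, and 1 cell held 27.5% of its UMIs. Its log2 ratio of 1.18 became 0.69 without suffix 5 and 0.56 without suffix 8.

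The lower immune genes were Il33 (4.08 times, 3.36 to 5.01), an alarmin, and Cd55 (3.89 times, 3.55 to 4.28), C7 and Cfd, all 3 of the complement system. Cd55 ranged from 27.2 to 136 CPM in members against 230 to 445 CPM. C7 stood at 8.18 CPM in members of suffixes 1 to 4 and 418 CPM in those of 5 to 8, against 17.6 and 645 CPM, so the sets of suffixes differed more than the cells did. Cfd rested on suffix 7, without which its log2 ratio was -0.11 in place of -1.70. Among growth factors that act on lymphatic or blood vessels, 2 of 12 tested were lower (1.87% of all genes) and none higher. These were Pdgfc (6.28 times, 4.39 to 9.33) and Pdgfd (3.26 times, 2.81 to 3.80). Pdgfc reached the minimum level only through the other fibroblasts. Trpv4, the channel in the study's title, was at 1.38 CPM from 8 UMIs in members and 3.14 CPM in other fibroblasts, under the minimum level, and none of 9 related channel genes tested passed 2-fold. Neither sex steroid receptor tested passed 2-fold.

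Marker lists of other cells were read for the same cells. Of 8 general fibroblast markers that were not used in the gate, none was higher and 1, Mfap5, lower, and Pdgfra itself was 434 against 384 CPM. Schwann cell markers summed to 13.6 to 173 CPM over the suffixes in members and 18.8 to 46.7 CPM in other fibroblasts, and Sox10, which defines Schwann cells, stood at 0.689 CPM from 4 UMIs in 2 members. Endothelial markers summed to 9.82 CPM in members and 15.4 CPM in others, and none was tested. Macrophage markers summed to 228 against 291 CPM. Smooth muscle markers were 3 of 5 lower (164 against 449 CPM summed), where 1.87% of all genes tested were lower. Their sums overlapped over the suffixes, at 55.8 to 563 CPM in members and 310 to 729 CPM in other fibroblasts. In suffix 7 all 3 were higher in members, with Acta2 at 218 against 107 CPM. Tagln was 101 against 71.8 CPM there and Myh11 69.9 against 43.1 CPM. Without suffix 6 Myh11 was at -0.99 on the log2 scale. Mesothelial markers summed to 43.2 against 170 CPM and epithelial markers to 13.8 against 104 CPM. Those tested of these 2 lists included Krt8 and Krt18, which reached the minimum level only through the other fibroblasts. Immediate early genes, which tissue dissociation can induce, had a median of 0.27 over 13 genes and none past 2-fold, and their part in the results was not tested.

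When all fibroblasts were clustered on variable genes without the rule genes, members did not form a cluster of their own. Of 20 clusters, cluster 1 held 204 members (46.5%), who made up 40.5% of its 504 cells. Its leading genes were Cxcl9, Olfm2, Lsamp, Ntf3 and Ldb2. Cluster 2 held 79 members, 12.4% of its cells, cluster 11 held 44 (40.7%) and cluster 9 held 41 (10.5%). On average 38.6% of a member's nearest neighbours were members, against 3.91% for other fibroblasts, and 39 members had none. Because a cluster is built from the cells it describes, these shares are no test.

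Members of the 2 sets of suffixes fell into different clusters. Cluster 1 held 61.1% of the members of suffixes 1 to 4 and 17.1% of those of 5 to 8. Cluster 2 held none of the former and 54.1% of the latter, and only 0.313% of its cells came from suffixes 1 to 4. Clusters 1 and 11 drew 91.5% and 100% of their cells from suffixes 1 to 4. Ngfr was 36.7 CPM in cluster 1 and 0 in cluster 2, while Gsc was 76.4 and 38.1 CPM. The levels of Fgf10 were 80.9 and 25.4 CPM in the same clusters.

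**Figure D5:**
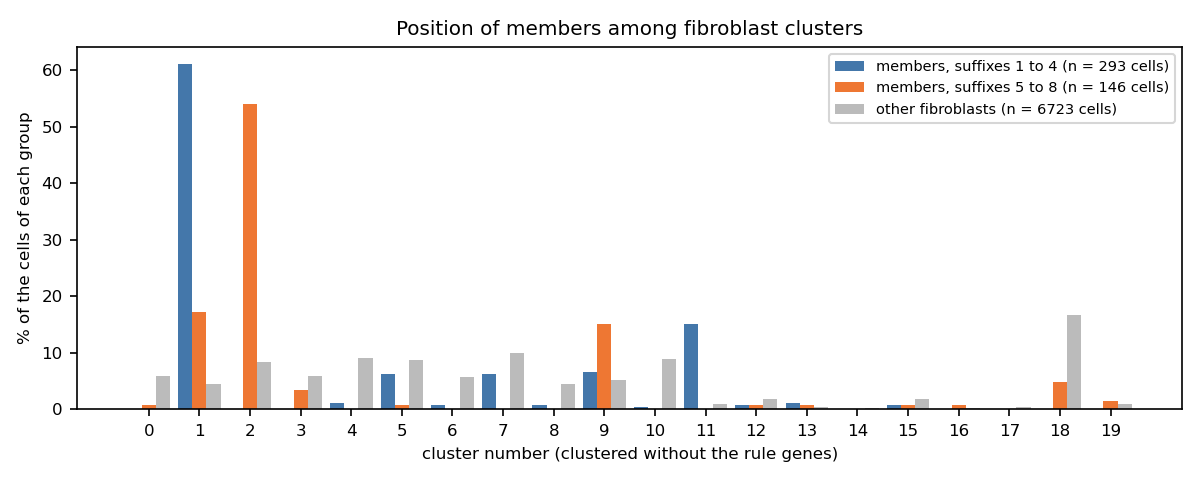
Share of members of suffixes 1 to 4, of members of suffixes 5 to 8 and of other fibroblasts (percent of each group's cells) in each of 20 Leiden clusters made without the rule genes. Cluster 1 holds 61.1% of the members of suffixes 1 to 4 and cluster 2 holds 54.1% of those of suffixes 5 to 8.

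Members inside cluster 1 and members elsewhere differed in several of the genes named above. Of the former 179 of 204 came from suffixes 1 to 4, so the cluster and the set of suffixes cannot be told apart here, and Olfm2 is a leading gene of the cluster. Olfm2 was 66.7 CPM (57.3 to 77.1) in the 204 members of cluster 1 and 16.8 CPM (12.6 to 22.1) in the 235 others, Pparg 82.9 and 41.1 CPM, and Hmgcs1 512 and 376 CPM. Bmper was 209 and 198 CPM, with overlapping intervals. Pde11a was lower inside, at 42.0 against 94.7 CPM, and so was Nrep, at 115 against 155 CPM. Over all members Pde11a was 29.7 CPM in suffixes 1 to 4 and 153.5 CPM in 5 to 8. Sfrp4, Smpd3, Fmo2 and Edn1 were also lower inside, with Sfrp4 at 8.84 against 57.2 CPM. The highest Ngfr level of any cluster was 120 CPM in cluster 13, whose 33 cells held no Fgf10 or Gsc UMI and included 4 members. Apod, Cdh19 and Dlk1 were among the leading genes of that cluster.

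Ngfr also split the members on other genes. The 105 members with a Ngfr UMI held 65.6 CPM of Olfm2 (53.0 to 80.3) and 561 CPM of Hmgcs1 (523 to 601), and the 334 without held 31.8 CPM (26.7 to 37.5) and 400 CPM (381 to 419). Both groups stood above the other fibroblasts at 3.51 and 143 CPM. Of the 105, 101 came from suffixes 1 to 4, so Ngfr and the set of suffixes cannot be told apart in this contrast.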

How the data were processed

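Single-cell libraries of mouse lymphatic vessels and surrounding tissue were analysed from the count matrix the authors deposited, which holds whole UMI counts per barcode for 32285 genes and 12 multiplexing tags. Per the submitters' processing notes, mm10, Cell Ranger 7.1.0 and Seurat 4.3.0.1 were used. What Seurat was used for and the gene annotation are not given in the sources used here. No file maps barcodes to mice, so all cells are 1 pooled sample, no p-value was computed, and comparisons are sizes with counting intervals.

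Barcodes needed at least 500 UMIs, 300 genes and under 15% mitochondrial UMIs. Counts were summed over members and over other fibroblasts and divided by total gene UMIs (CPM). Intervals are exact Poisson for levels, exact binomial for shares and conditional binomial for ratios. Genes were tested at a mean of both groups of at least 10 CPM, with a pseudocount of 10 CPM, and counted past 2-fold. Members and gene lists were chosen with earlier results of these data known, and the sterol and fatty acid lists were added after the values here had been seen.

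Named genes were the 15 highest and 12 lowest ratios with that sign in at least 7 suffixes, leaving out rule, mitochondrial, ribosomal, haemoglobin, Xist, Y-linked and unnamed genes, then the 4 markers, then list genes past 2-fold. Genes such as H19 and Chst11, which passed 2-fold against each other set, and genes under 2-fold were named after their values were seen. Some genes counted in the lists are not reported here by name.

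Clusters came from scanpy 1.11.5 (Leiden) without rule genes, doublet calls from Scrublet within suffixes 1 to 4 and 5 to 8. Python 3.11.15, numpy 2.4.6 and scipy 1.17.1 were used. The comparison was tested on simulated counts. Alternatives varied the thresholds, rule genes, depth, comparison cells, pseudocount, gene filter, doublets and suffixes.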

Additional observations from a re-analysis of the deposited data

Results flagged for a closer look

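In 32 genes, the highest or lowest of the 8 suffixes was set against the nearest other by its gap as a share of the whole range, with the limit of Dixon's test at the 95% level. Chance alone passes about 1 gene in 20, and 5 genes passed. Hsd11b2 in members of suffix 4 was 37.6 CPM, where the next suffix was 21.7 CPM. Angptl7 was 25.2 CPM in suffix 7 and 0 in the nearest other, from 1 cell. Fmod was also 25.2 CPM in suffix 7, with 1.34 CPM in the next. Limch1 was 37.2 CPM in suffix 5, with 11.2 CPM in the next. Edn1 was 68.0 CPM in suffix 8, with 17.2 CPM in the next, and 1 member held 29.5% of the members' Edn1 UMIs.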

How the results depend on the processing

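The member share of 6.13% was 7.94% with a sum of at least 1, 4.34% with at least 3, and 1.45%, 3.98% and 4.40% with Ngfr, Fgf10 or Gsc alone. It was 8.56% in suffixes 1 to 4, 3.90% in 5 to 8, and 4.73% without members that hold a Ngfr UMI, 3 settings chosen after seeing the data. Leaving out 1 suffix at a time gave 5.47% to 6.55%, 76 to 90 higher genes and 154 to 166 lower genes. The 79 higher and 157 lower genes became 132 and 254 with Ngfr alone and 135 and 243 with a pseudocount of 1 CPM. They became 47 and 89 in a thinned setting. There cells were thinned to 3000 UMIs, gated again and chosen at a sum of at least 1. The cells compared and the depth thus changed together.

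Of 101 named genes, 44 were under 2-fold in the thinned setting and none under the stricter cell filter. Cfd changed sign, to 4.81 with a sum of at least 1, 5.70 with Fgf10 alone and 0.079 with Dcn of at least 20. It was 0.089 at 5000 to 20000 UMIs and 0.41 in the thinned setting. Against fibroblasts without a UMI of Ngfr, Fgf10 or Gsc it was 0.058, and against the 4 assigned sets 0.15. Cxcl13 was -0.36 with Gsc alone and -0.60 in suffixes 1 to 4. In the thinned setting Tagln was 0.18, Krt8 0.050 and Acta2 0.37. The cause was not tested. Ngfr was -0.28 without members that hold it, by construction. Depth limits genes of few UMIs. No paired analysis was possible because no test was made on 1 pooled sample. Members and other fibroblasts were set side by side within each suffix.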

Other observations

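The multiplexing tags gave a further reading of the suffixes. The most frequent tag of each suffix held 75.8% to 82.1% of the tag UMIs in members and 76.5% to 81.0% in other fibroblasts. Fewer than 50% of tag UMIs came from that tag in 7 of 439 members and 88 of 6723 other fibroblasts. The 300 other fibroblasts of cluster 1, which the rule left out, held 35.9 CPM of Olfm2 (30.0 to 42.5) and 362 CPM of Hmgcs1 (343 to 382), against 1.92 and 132 CPM in other fibroblasts of the remaining clusters. Their Hsd11b2 level was 19.9 CPM (15.7 to 25.0), close to that of the members.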
